A study of Mus musculus with 16 samples.

Results

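The genes described here are those of the interferon response and of class I antigen presentation, as measured in islets of mice with a conditional deletion of Insm1 and in control islets. The list holds 34 genes written down by name, and 32 of them could be measured among 18193 genes in all. A gene was taken as measured where a probe set of the array named it and no other gene. Isg15 had only a probe set that names several genes, and Ifi44 had none of its own. Where a gene had more than 1 probe set, the one with the highest mean over all 16 arrays was used. Insm1 encodes a zinc finger protein that controls transcription in endocrine cells. Each group had 8 islet preparations, with 1 array each. Every animal carried RIPcreER, a tamoxifen-inducible Cre recombinase driven by the rat insulin promoter, which acts in beta cells. The mutants were Insm1flox/lacZ and the controls Insm1flox/+, so that the lacZ allele was present only in the mutants and in all their cells. Both genotypes received tamoxifen (25 mg, released over 21 days) when 4 to 5 weeks old, and their islets were isolated at 8 to 12 weeks. Control beta cells could therefore also lose their floxed allele, but had a wild-type copy left. The mice were a mix of the strains C57BL/6, 129/ola and CBA/J, and the controls were matched by litter. The comparison asks which islet transcripts differ when beta cells lose Insm1 after tamoxifen at 4 to 5 weeks. That loss and the lacZ allele in all cells of the mutants cannot be told apart here.

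Type I and type III interferons signal through receptors and Janus kinases to the factor ISGF3, which includes Stat2 and Irf9 and binds the interferon-stimulated response element of antiviral genes. Interferon gamma acts through gamma-activated sites and induces Irf1, the class I regulator Nlrc5, guanylate-binding proteins and the parts of the class I pathway. Class I molecules present peptides that the immunoproteasome cuts and the Tap transporter carries into the endoplasmic reticulum. In islets both programmes are known from autoimmune and viral settings, in which beta cells raise class I molecules and antiviral enzymes.

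Values are the deposited log2 signals, with array medians of 6.294 to 6.353, and a difference is the mutant mean minus the control mean on that scale. A gene is called where its adjusted p from limma, with genotype as the only term, is under 0.05 after Benjamini-Hochberg adjustment over all genes. Insm1 itself averaged 11.26 ± 0.23 (SD, n = 8) in controls and 11.02 ± 0.22 in mutants and was not called (difference −0.25 ± 0.11 SE, adjusted p = 0.182). A second Insm1 probe set differed by −0.05. No source used here says where these probe sets lie relative to the deleted part, so they do not check the labels. Hormone and secretory granule transcripts, the defining markers of islet cells, averaged 14.23 in both groups. That is near the highest value of all, 15.393, and saturation of these probes was not tested. Of the 10 markers 1, the zinc transporter Slc30a8, was lower by a called amount (difference −0.34, adjusted p = 0.000764). The mean of 13 acinar markers, which stand for exocrine tissue carried along with islets, averaged 13.14 in controls and 11.50 in mutants and was lower in the mutant of all 8 pairs of same-numbered arrays. None of the 13 was called. With the array number added to the fit as a block (described below), all 13 were called lower, against 9.71% of all genes. The mean of 12 lymphocyte markers was 5.72 to 7.39 in controls and 5.64 to 8.37 in mutants, with mutant arrays 1 and 3 (8.37 and 8.07) and control array 1 (7.39) standing above the rest. The mean of 15 macrophage markers was 7.10 to 7.91 in controls and 7.25 to 8.59 in mutants, and was again highest on mutant arrays 3 and 1. Of these markers, 5 of the 12 lymphocyte and 2 of the 15 macrophage genes lay below the lowest array median on average. No lymphocyte marker and 1 macrophage marker (C1qa, higher) was called. The mean of 8 markers of class II antigen-presenting cells was highest on mutant arrays 1 and 3 (10.09 and 9.27) and control array 1 (8.92). It averaged 8.09 in controls and 8.49 in mutants. Endothelial markers averaged 8.27 and 8.23. No gene of these last lists was called, with or without the block. The mean of 5 markers of plasmacytoid dendritic cells, which are strong producers of type I interferon, averaged 6.86 in controls and 7.08 in mutants and was higher in the mutant of 8 of 8 pairs, with none of the 5 called. On arrays 1, 2 and 3 it was 7.88, 7.06 and 7.48 in mutants and 7.43, 6.70 and 6.88 in controls. On the arrays numbered 4 to 8 it was 6.76 to 6.92 in mutants and 6.65 to 6.87 in controls. With the block, 1 of the 5 was called higher, against 7.88% of all genes. Ductal markers averaged 7.58 and 7.10 and were lower in 8 of 8 pairs (Krt19 called lower), and stromal markers averaged 8.36 and 8.55 and were higher in 7 of 8 (Dcn and Col1a2 called higher, Acta2 lower). With the block, 2 of 6 ductal markers were lower, and of 10 stromal markers 4 were higher and 3 lower. That is 33.3% and 70.0%, against 17.6% of all genes in either direction. The part of these cells in the results was not tested. Results that rest on these arrays are given with and without the arrays numbered 1 to 3.

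Of the 32 measured genes, 1 was higher in the mutant, 4 were lower and 27 were not called. The called share was 15.6%, against 8.76% of all genes in either direction. By direction, 4.1% of all genes were higher and 4.66% lower. The median difference of the 32 genes was −0.02, and that of all genes −0.01. Single differences ran from −0.50 to 0.41, with 14 above 0 and 18 below. Low signals were not filtered out, and 7 of the 32 genes lay below the lowest array median, a share of 21.9% against 35.8% of all genes. All 4 lower genes were antiviral effectors, a role in which 13 of 14 measured genes had a difference below 0 (median −0.12), against 51.9% of all genes. Several of the 13 lay close to 0, with Oas3, Ifit3, Bst2, Ifi35 and Oasl1 between −0.04 and −0.01. The difference between roles was not tested. The higher gene was a sensor of viral RNA, and none of the 8 class I genes, 5 transcription factors or 3 chemokine and guanylate-binding genes was called. In bulk islets, fewer cells of a type and less RNA per cell cannot be told apart.

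**Figure D1:**
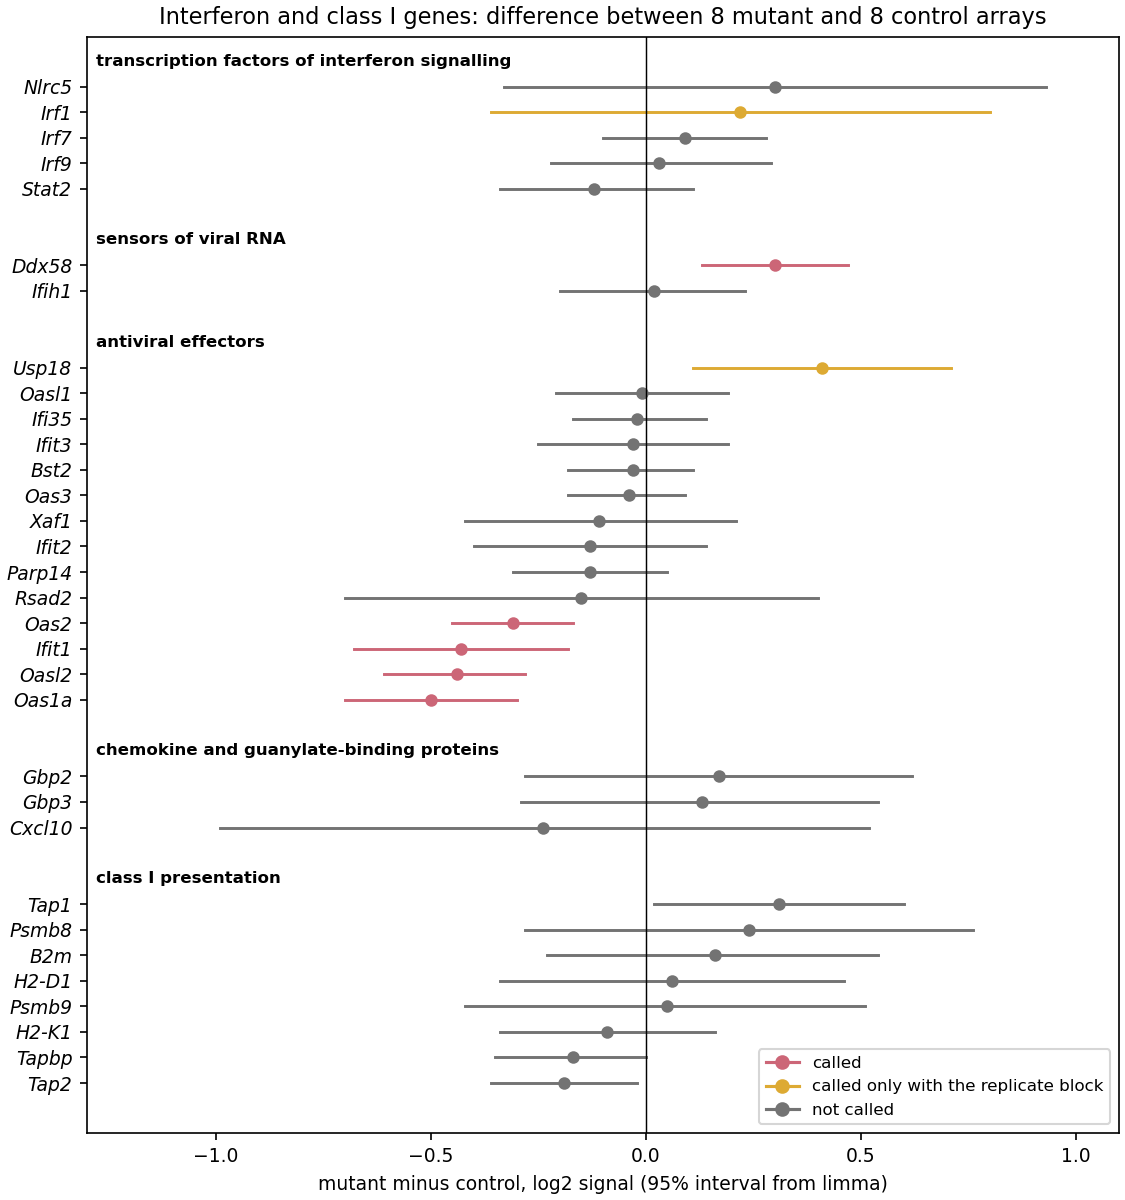
Each point is the mutant minus control difference of 1 gene in log2 signal (x axis) with its 95% interval from limma, 8 arrays in each group, grouped by role (y axis); red marks called genes and yellow those called only with the replicate number as a block. The points left of 0 with red bars are Oas1a, Oasl2, Ifit1 and Oas2, and Ddx58 is the red point to the right.

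The numbers 1 to 8 in the labels are shared by the groups, and arrays of the same number deviated together, so the comparison was also fitted with the number as a block. With the block, 3 of the 32 genes were higher and 4 were lower, against 7.88% of all genes higher and 9.71% lower. In either direction this was 21.9% of the 32 genes and 17.6% of all genes. The added genes were Usp18 and Irf1. All 5 genes called without the block were called with it.

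Antiviral effectors act on viral RNA, particles or replication. Oas1a encodes a 2′-5′ oligoadenylate synthetase, an enzyme that senses double-stranded RNA and makes the messenger that activates RNase L. Its signal was 7.94 at the lowest, 8.21 at the median and 8.51 at the highest in controls, and 7.53, 7.70 and 8.01 in mutants. Only mutant array 3, at 8.01, lay within the control range. Oas1a fell by 0.50 ± 0.09 (SE, n = 8 arrays per group) on the log2 scale, which is 1.42-fold, with an adjusted p of 0.00217. It was lower in the mutant of all 8 pairs (blocked adjusted p = 0.000174). The call held in all 32 alternative settings tried, with differences from −0.56 to −0.46.

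Oasl2, a 2′-5′ oligoadenylate synthetase-like gene, was the only one of the 32 whose groups did not overlap, against 2.29% of all genes. Control signals were 5.47, 5.71 and 6.00 (lowest, median, highest), and mutant signals 5.17, 5.26 and 5.37. Every mutant array thus lay below every control array. Oasl2 fell by 0.44 ± 0.08, or 1.36-fold (adjusted p = 0.00147; blocked adjusted p = 0.00564). The SD was 0.21 in controls and 0.07 in mutants. Its mean lay below the lowest array median, as did 35.8% of all genes. With the block and the acinar marker mean as a covariate together the difference was −0.48 and the call was lost (adjusted p = 0.16). The acinar mean was lower in the mutant of all 8 pairs, so that fit cannot well separate it from genotype. Fewer of all genes were called in it, 424 higher and 303 lower. Calls lost or gained in that fit, here or below, are therefore not read as an acinar effect.

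Oas2, a further synthetase of this family, was also dim. Its control signals were 5.74, 5.92 and 6.20, and its mutant signals 5.54, 5.64 and 5.78. Mutant arrays 1 and 7 lay within the control range and the other 6 below it. Oas2 fell by 0.31 ± 0.07 (1.24-fold, adjusted p = 0.00692; blocked adjusted p = 0.0104) and was lower in all 8 pairs. Without the arrays numbered 1 to 3 the difference was −0.28 and was not called (adjusted p = 0.103), nor was it with the block and the acinar marker mean together (−0.21, adjusted p = 0.44). Among the 10 measured genes with an Oas symbol, on or off the list, 3 (30.0%) were called, all lower, against 4.66% of all genes lower. These 3 are the genes just described, so the share restates their calls and is not a separate result.

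The other members of the Oas family differed less. Oas3 had a difference of −0.04 (adjusted p = 0.775) and Oasl1 one of −0.01 (adjusted p = 0.959), and both were below the lowest array median. Outside the list, Oas1b differed by 0.02, Oas1e by −0.06, Oas1f by 0.02 and Oas1h by −0.10, none called. Oas1c had a difference of −0.21 that was called only with the block (adjusted p = 0.215 without it and 0.0373 with it). These genes have similar sequences, and cross-hybridisation between them was not tested.

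Ifit1 encodes a protein that binds viral RNA lacking the methylated cap of the host. Control signals were 6.04, 6.74 and 7.02, and mutant signals 6.13, 6.28 and 6.49. Control array 8, at 6.04, lay below all 8 mutant arrays, and the other 7 controls, at 6.57 or more, lay above all of them. Ifit1 fell by 0.43 ± 0.12, or 1.35-fold (adjusted p = 0.0284; blocked adjusted p = 0.0354). This call was the least firm of the 5. It was lost in 14 of 32 alternatives, among them 7 that each left out 1 array (mutant 1, 3, 4 or 5, or control 3, 5 or 6; adjusted p up to 0.0606). Without control array 8 the difference was −0.53 (adjusted p = 0.000927), and without the arrays numbered 1 to 3 it was −0.37 (adjusted p = 0.291). Its relatives Ifit2 (−0.13, adjusted p = 0.626) and Ifit3 (−0.03, adjusted p = 0.915) were not called.

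**Figure D2:**
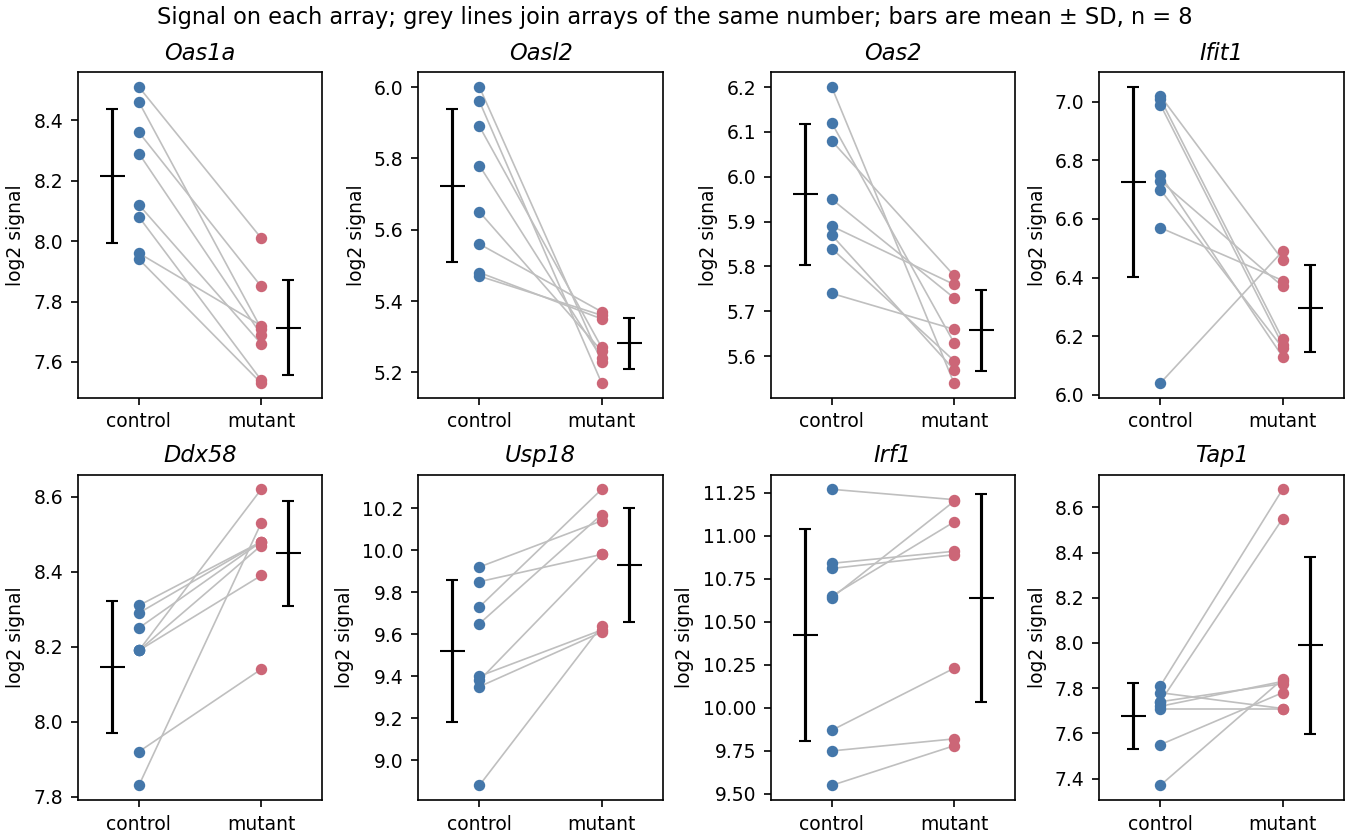
Log2 signal (y axis) on each control (blue) and mutant (red) array for 8 genes, with grey lines joining arrays of the same number and bars giving the mean ± SD of 8 arrays. Oasl2 is the panel in which the groups do not overlap, Ifit1 has 1 low control array at 6.04, and Usp18 and Ddx58 are higher in the mutant of every pair.

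Usp18 removes the ubiquitin-like modifier Isg15 from proteins and dampens signalling at the type I interferon receptor. It had the largest positive difference of the 32 genes, 0.41 ± 0.14, and was the only one of 14 measured effectors with a difference above 0. Its signals were 8.88, 9.52 and 9.92 in controls and 9.61, 9.98 and 10.29 in mutants. The groups overlapped, since the level varied between pairs, but the mutant was the higher array in all 8 pairs. It was not called in the main fit (adjusted p = 0.089) and was called with the block (difference 0.41 ± 0.07 SE, adjusted p = 0.00277). Without the block it was called with the acinar covariate (0.52, adjusted p = 0.0458) and a 3′ minus 5′ covariate (0.59, adjusted p = 0.0257). It was not called with the immune marker covariate (0.32, adjusted p = 0.189). Without the arrays numbered 1 to 3 the difference was 0.40 (adjusted p = 0.206, and 0.032 with the block). Across the 32 genes, 5 kept 1 direction in all 8 pairs, against 13.0% of all genes. They were Oas1a, Oas2, Oasl2, Usp18 and Ddx58.

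The remaining effectors were not called. Rsad2, the radical enzyme viperin, varied more between arrays than any other effector (8.04 to 9.59 in controls, 8.03 to 9.57 in mutants) and differed by −0.15 (adjusted p = 0.812). Bst2, which tethers budding virus particles to the cell, differed by −0.03, and Ifi35 by −0.02. Xaf1 had a difference of −0.11 and Parp14, an ADP-ribosyltransferase, one of −0.13 (adjusted p = 0.418). A second, dimmer probe set of Parp14 was lower by a called amount (difference −0.26, adjusted p = 0.0478 over all probe sets). With the mean of its probe sets Parp14 was called (−0.19, adjusted p = 0.0442).

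The region before the start site is where ISGF3 acts, so windows were read from RefSeq promoters (GRCm38.p6) for the called genes other than Oas2. A window of 250 bases before to 50 after the start was given for 27 of the 32 genes. The core searched was GAAANNGAAA, or TTTCNNTTTC on the other strand. It was found in 13 of the 32 windows of these genes (40.6%) and in 3.44% of all 32851 windows. Counted by gene, this was 13 of 27 (48.1%) and 3.99% of all genes with a window. The 13 were B2m, Bst2, Cxcl10, Ddx58, Gbp2, Gbp3, Ifih1, Ifit1, Ifit3, Oas1a, Oas3, Rsad2 and Stat2. The core of the gamma-activated site, TTCNNNGAA, which reads the same on both strands, was found in 6 of the 32 windows (18.8%) and in 8.3% of all windows. The first 275 bases of the windows of 4 called genes are shown 5′ to 3′ in the direction of the gene, with cores of the response element in capitals, since they set 3 called genes with a core beside 1 without. They lie at chr5:120907501-120907775 (Oas1a, minus strand), chr19:34640639-34640913 (Ifit1, plus), chr4:40239801-40240075 (Ddx58, minus) and chr5:114896684-114896958 (Oasl2, plus).
Oas1a: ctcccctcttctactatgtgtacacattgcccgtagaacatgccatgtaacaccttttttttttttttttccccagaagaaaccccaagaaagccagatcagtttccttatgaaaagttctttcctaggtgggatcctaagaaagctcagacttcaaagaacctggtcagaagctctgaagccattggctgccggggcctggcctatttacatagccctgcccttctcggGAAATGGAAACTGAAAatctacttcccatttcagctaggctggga
Ifit1: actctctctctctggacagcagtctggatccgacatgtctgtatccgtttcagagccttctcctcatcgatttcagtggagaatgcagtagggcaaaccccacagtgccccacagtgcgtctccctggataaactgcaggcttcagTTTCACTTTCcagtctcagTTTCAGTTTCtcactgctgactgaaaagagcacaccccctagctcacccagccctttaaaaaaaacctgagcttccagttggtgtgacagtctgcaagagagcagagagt
Ddx58: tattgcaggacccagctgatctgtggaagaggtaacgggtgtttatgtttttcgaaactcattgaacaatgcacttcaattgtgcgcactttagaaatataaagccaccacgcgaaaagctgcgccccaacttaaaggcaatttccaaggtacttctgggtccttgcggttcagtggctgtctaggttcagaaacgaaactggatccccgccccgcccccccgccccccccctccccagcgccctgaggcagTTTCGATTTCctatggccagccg
Oasl2: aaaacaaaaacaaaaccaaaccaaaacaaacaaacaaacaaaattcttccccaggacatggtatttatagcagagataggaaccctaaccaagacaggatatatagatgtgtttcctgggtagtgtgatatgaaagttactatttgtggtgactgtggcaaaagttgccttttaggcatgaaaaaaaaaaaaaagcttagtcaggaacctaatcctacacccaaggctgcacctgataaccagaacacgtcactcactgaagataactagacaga
Counted from the first base shown, the Oas1a window has 2 overlapping cores, at bases 231 to 240 and 237 to 246, just before the start site. Ifit1 has 2 separate cores, at bases 147 to 156 and 166 to 175. Ddx58 has 1, at bases 253 to 262, just after the start site. The Oasl2 window has no match to these letters, which says nothing of sites elsewhere. Genes with a core in the window were found among the lower genes (Oas1a, Ifit1), the higher gene (Ddx58) and the 10 others that were not called.

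Sensors of viral RNA detect the products of infection and start interferon production. Ddx58 encodes RIG-I, which binds short double-stranded RNA with a triphosphate end. Its control signals were 7.83, 8.19 and 8.31, and its mutant signals 8.14, 8.48 and 8.62. Of the mutants, 7, at 8.39 or more, lay above every control, and mutant array 8, at 8.14, lay within the control range. Ddx58 was higher by 0.30 ± 0.08, or 1.23-fold (adjusted p = 0.0238; blocked adjusted p = 0.00731), and was higher in all 8 pairs. A second probe set of Ddx58 was called in the same direction (0.45, adjusted p = 0.0256 over all probe sets), and the third and dimmest was not (−0.05). The call on the first was lost in 5 alternatives. They were the immune marker covariate (0.27, adjusted p = 0.0518), the block with the acinar covariate (0.42, adjusted p = 0.082), the 3′ minus 5′ covariate (0.24, adjusted p = 0.151), the fit without the arrays numbered 1 to 3 (0.27, adjusted p = 0.16) and the fit without control array 8 (0.27, adjusted p = 0.0504). Ifih1, which encodes the sensor of long double-stranded RNA, Mda5, differed by 0.02 ± 0.10 (95% interval −0.20 to 0.23, adjusted p = 0.958).

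The transcription factors of the pathway were not called. Stat2 differed by −0.12, Irf9 by 0.03 and Irf7, the amplifier of type I interferon production, by 0.09, with adjusted p values of 0.608 to 0.918. Nlrc5, the transactivator of class I genes, differed by 0.30, but with an interval of −0.33 to 0.93. Irf1 is a factor induced by interferon gamma and inflammatory cytokines. It had signals of 9.55, 10.65 and 11.27 in controls and 9.78, 10.90 and 11.21 in mutants. Its difference of 0.22 was small beside the SD of 0.62 in controls and 0.60 in mutants (adjusted p = 0.722). The spread was shared within pairs. The mutant was higher in 7 of 8 pairs, the SE fell from 0.28 to 0.07 with the block, and the blocked adjusted p was 0.0468. The call was lost with the immune marker mean added to the block (adjusted p = 0.0895), with the block without the arrays numbered 1 to 3 (adjusted p = 0.0696), and with the acinar marker mean added to the block, where the difference was 0.05 (adjusted p = 0.879).

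Irf1 and Cxcl10, a chemokine that draws activated T cells, had the same division of replicate numbers in both groups. For Irf1 all 10 arrays numbered 1 to 5 lay between 10.64 and 11.27, and all 6 arrays numbered 6 to 8 between 9.55 and 10.23. For Cxcl10 the ranges were 7.09 to 8.37 and 5.96 to 6.97. On the probe set used for each gene, 2 of the 32 genes (6.25%) were separated in this way, and 0.242% of all genes, or 44. A dimmer H2-D1 probe set, not counted here, had the same division (8.26 to 9.58 and 7.03 to 7.98). No gene of the 32 and 11 of all genes (0.0605%) had the reverse order. The division was chosen after the values were seen, and the labels do not say what the numbers stand for beyond replicates. What these arrays share was not tested.

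**Figure D3:**
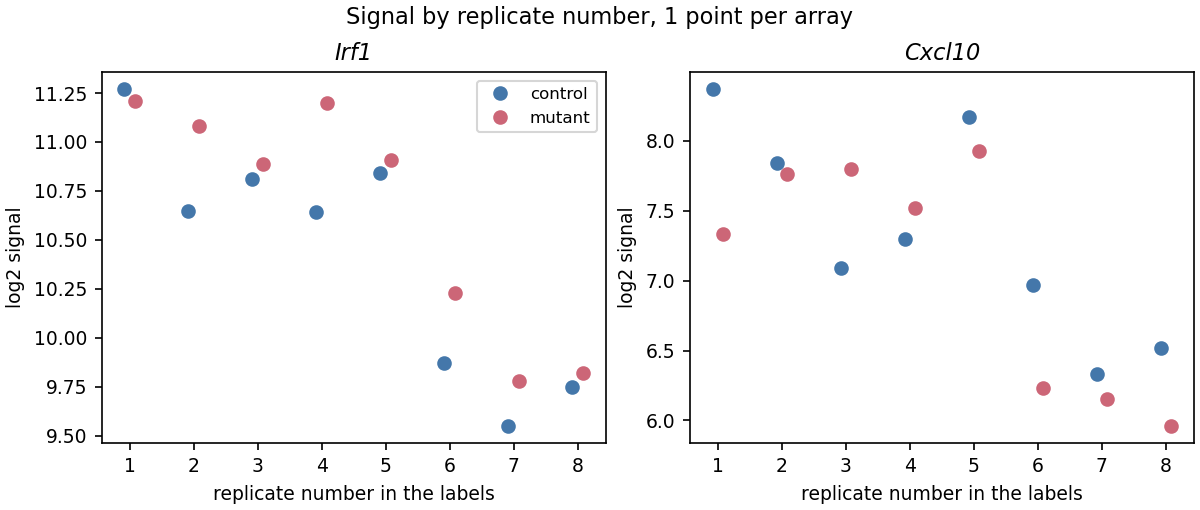
Log2 signal (y axis) of Irf1 and Cxcl10 against the replicate number in the labels (x axis), 1 point per array, with controls in blue and mutants in red. In both groups the arrays numbered 1 to 5 lie above those numbered 6 to 8.

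Cxcl10 differed between genotypes by −0.24 ± 0.36 (adjusted p = 0.775). Gbp2 and Gbp3, interferon-inducible GTPases that attack vacuoles of intracellular pathogens, differed by 0.17 (adjusted p = 0.717) and 0.13 (adjusted p = 0.781). Mutant arrays 1, 2 and 3 had the highest mutant signals of Gbp2 (7.37, 7.67 and 8.02), and the other 5 mutants lay at 6.35 to 6.85. With the immune marker mean as a covariate the difference of Gbp2 was −0.03, and without the arrays numbered 1 to 3 it was −0.04.

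Class I presentation genes had no call in either direction and a median difference of 0.05, within a range of −0.19 to 0.31. The heavy chains were bright. H2-K1 averaged 12.90 ± 0.22 (SD, n = 8) in controls and 12.81 ± 0.28 in mutants. B2m, the light chain of all class I molecules, averaged 12.29 ± 0.25 in controls and 12.45 ± 0.51 in mutants. Its difference of 0.16 ± 0.18 had an interval of −0.23 to 0.54. Tapbp and Tap2, which load peptides and carry them into the endoplasmic reticulum, differed by −0.17 (adjusted p = 0.237) and −0.19 (adjusted p = 0.162). Tap1, the partner of Tap2 in the transporter, differed by 0.31 (adjusted p = 0.195). The signs of Tap1 and Tap2 were thus opposite on these probe sets, and neither passed the test. The other Tap1 probe sets, all below the lowest array median, differed by −0.04, −0.06 and 0.04. With the mean of its probe sets Tap1 differed by 0.06 (adjusted p = 0.629).

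The spread of several class I genes in mutants came from arrays 1 and 3. Psmb8, a catalytic subunit of the immunoproteasome, stood at 9.91 and 9.74 there and at 7.98 to 8.66 on the other 6 mutants. The controls ran from 8.18 to 9.12, with array 1 the highest. Psmb9, a second immunoproteasome subunit, was at 9.22 and 8.98 on mutant arrays 1 and 3 and reached 7.92 on the others. Tap1 was at 8.68 and 8.55 on those arrays, against 7.84 at most elsewhere among the mutants. B2m was at 13.13 and 13.26 there, and Nlrc5 at 6.34 and 6.66. These are the mutants with the highest lymphocyte and macrophage marker means, and control array 1, the control with the highest lymphocyte mean, had the highest control signal of Psmb8, Psmb9, Tap1, B2m and Nlrc5. Over all 32 genes, 11 (34.4%) had their highest signal on mutant array 1 or 3, against 18.0% of all genes. The highest control signal was on control array 1 for 17 of the 32 (53.1%), against 11.8% of all genes. These arrays were singled out after the values were seen, and the shares were not tested. The part of lymphocyte and macrophage RNA in these signals was not tested beyond the following values.

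**Figure D4:**
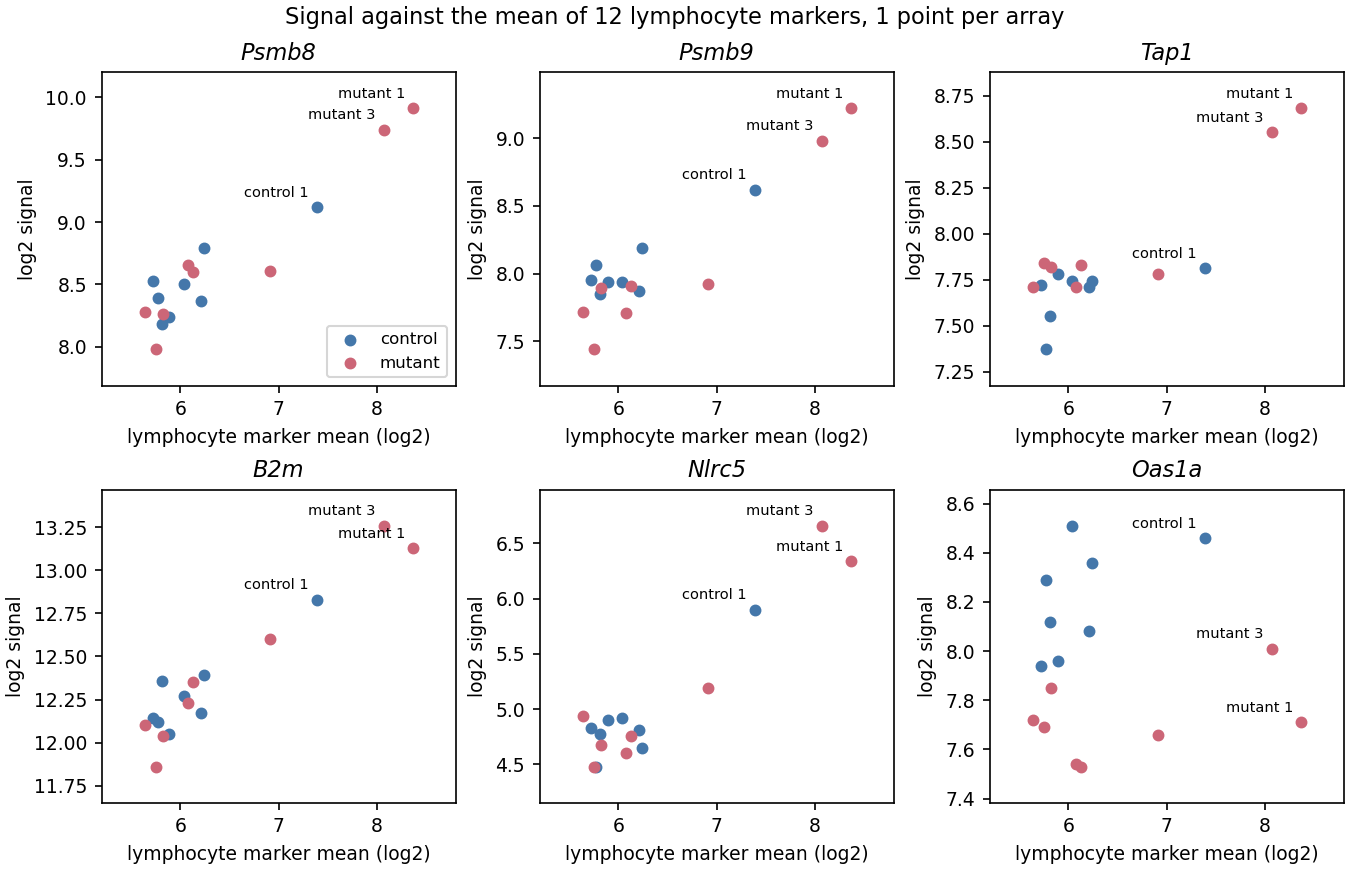
Log2 signal of 6 genes (y axis) against the mean log2 signal of 12 lymphocyte markers (x axis), 1 point per array, with controls in blue and mutants in red. Mutant arrays 1 and 3 and control array 1 lie to the right and high for Psmb8, Psmb9, B2m and Nlrc5. In the Oas1a panel 7 of the 8 mutant arrays lie below all controls. The part of lymphocyte RNA in these signals was not tested.

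With the mean of the macrophage and lymphocyte markers as a covariate, Psmb8 differed by −0.09, Psmb9 by −0.25, B2m by −0.09, Nlrc5 by −0.09 and Tap1 by 0.15, and none was called. Without the arrays numbered 1 to 3 in both groups these differences were −0.11, −0.27, −0.06, −0.04 and 0.12. Of the 4 lower antiviral effectors, 3 stayed called with the same covariate. Oas1a differed by −0.56 (adjusted p = 0.000953), Oasl2 by −0.46 (adjusted p = 0.00242) and Oas2 by −0.33 (adjusted p = 0.00626). Those were the 3 called genes of the 32 under that covariate, against 8.65% of all genes, while Ifit1 differed by −0.41 (adjusted p = 0.0555). Without the arrays numbered 1 to 3, Oas1a (−0.46, adjusted p = 0.0256) and Oasl2 (−0.37, adjusted p = 0.024) were called, 2 of 32 against 4.55% of all genes. With the acinar marker mean as a covariate Tap1 was called (0.48, adjusted p = 0.0419). With that covariate and the block Psmb8 was called (0.94, adjusted p = 0.0333), in the fit that cannot well separate the acinar mean from genotype.

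The H2-D1 heavy chain showed a division of arrays that did not follow genotype. Its brightest probe set was at 11.99 to 13.04 on 15 arrays and at 11.24 on mutant array 7, and differed between groups by 0.06 ± 0.19 (adjusted p = 0.904). On 3 of its other probe sets the signal was high on mutant arrays 1 and 7 and control arrays 1 and 8, and low on the other 12. On the first of these the 4 arrays lay at 10.12 to 10.70 and the rest at 5.11 to 5.59. On the second they lay at 8.96 to 9.78 and the rest at 5.09 to 5.83, and on the third at 10.37 to 11.05 and the rest at 6.87 to 7.61. A probe set of H2-Ea, a class II gene that is not on the list, divided the arrays in the same way (8.45 to 12.06 against 4.85 to 6.53). The genotypes were evenly placed, with 2 mutants and 2 controls on the high side, and no H2-D1 probe set was called. As background, the H2 genes differ in sequence between inbred strains, and H2-Ea is not transcribed in strains of the b haplotype such as C57BL/6. Whether these mice of mixed background carried different H2 haplotypes was not tested. Several H2 probe sets carry a suffix of the array maker that marks possible binding to transcripts of related genes.

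**Figure D5:**
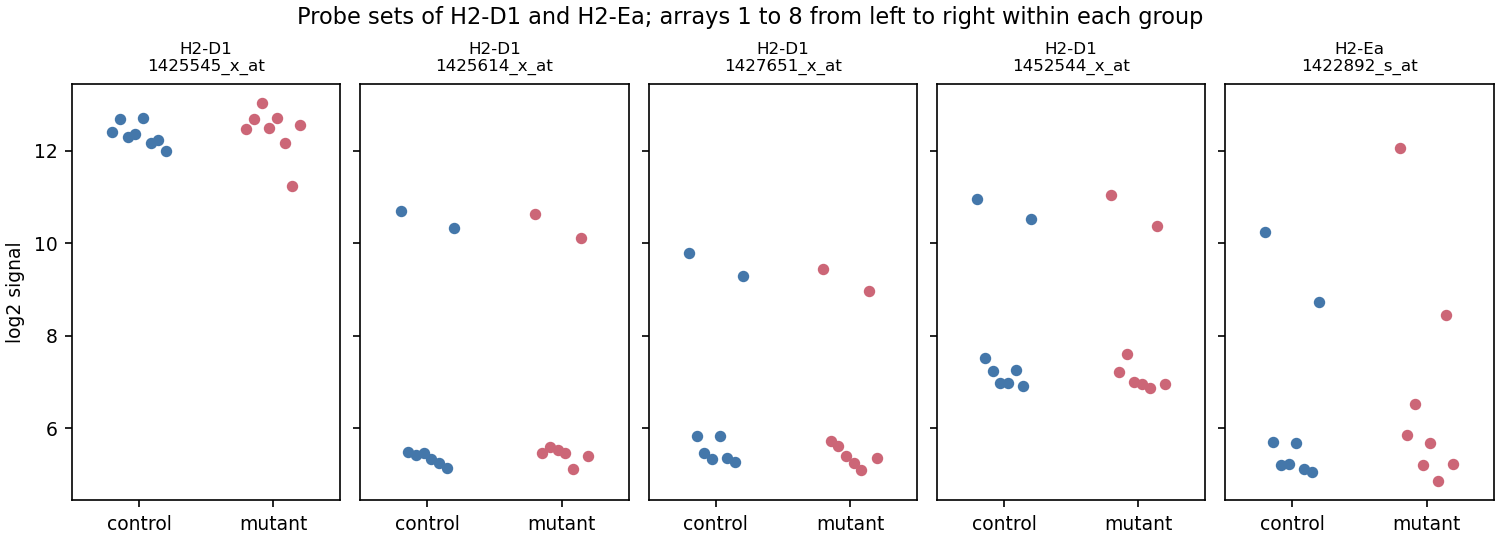
Log2 signal (y axis) on each array for 4 H2-D1 probe sets and 1 H2-Ea probe set, with controls in blue, mutants in red and arrays 1 to 8 from left to right within a group. In the 4 right panels the same 4 arrays, control 1 and 8 and mutant 1 and 7, lie above the other 12, and in the left panel mutant array 7 is the lowest at 11.24.

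Of the 32 genes, 13 had more than 1 probe set, with 27 further probe sets between them. Of these 27, the second of Ddx58 and the second of Parp14 were called, each with the same sign as the brightest. That is 7.41%, against 6.86% of all probe sets tested singly.

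Other genes of the pathway were listed apart from the 32. Of 20 further signalling and sensing genes, 19 were measured, 1 was higher and 1 lower, which is 10.5% of the list against 8.76% of all genes. Ifngr1, a chain of the interferon gamma receptor, was higher by 0.26 ± 0.06 (adjusted p = 0.0133). Tlr3, an endosomal sensor of double-stranded RNA, had a difference of −0.28 ± 0.08 (adjusted p = 0.0302), with control signals of 6.52 to 7.04 and mutant signals up to 6.66. With the block 3 were higher and 2 lower (26.3%, against 17.6% of all genes). The added genes were Ifnar2, a chain of the type I receptor (0.21, blocked adjusted p = 0.0207), Trim25, the ubiquitin ligase that activates RIG-I (0.18, blocked adjusted p = 0.0334), and Jak1, a kinase of both receptors (−0.29, blocked adjusted p = 0.0284).

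Of 45 further interferon-stimulated genes, 40 were measured, 1 was higher and 2 were lower, which at 7.5% is no larger than the share of all genes. Ifitm1, a membrane protein that restricts virus entry, had the largest called difference among these lists and the 32 genes. Its signals were 7.58, 8.11 and 8.65 in controls and reached 10.26 in mutants, where only array 8, at 8.47, lay within the control range. It was higher by 1.47 ± 0.23, or 2.77-fold (adjusted p = 0.000456), in all 8 pairs. Tor3a, an ATPase of the endoplasmic reticulum induced by interferon, fell by 0.66 ± 0.11, or 1.58-fold (adjusted p = 0.000796). Mx1, the antiviral GTPase, fell by 0.42 ± 0.10 (adjusted p = 0.0144) at a dim signal of 5.03 in controls. With the block 4 were higher and 4 lower, 8 of 40 beside 17.6% of all genes. The added higher genes were Irgm1, an immunity-related GTPase (0.25, blocked adjusted p = 0.00875), Ly6e (0.25, blocked adjusted p = 0.0434) and Helz2 (0.20, blocked adjusted p = 0.034). The added lower genes were Eif2ak2, the kinase PKR that halts translation (−0.26, blocked adjusted p = 0.0419), and Oas1c.

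Of 23 further class I genes, 18 were measured, 2 were higher and none lower (11.1%, against 8.76% of all genes). Both encode molecules of the class I fold that do not present cytosolic peptides to T cells. Fcgrt, the neonatal Fc receptor, was higher by 0.28 ± 0.06 without overlap (adjusted p = 0.00417). Cd1d1, which presents lipids, was higher by 0.38 ± 0.10 (adjusted p = 0.0177). Without the arrays numbered 1 to 3, none of these 18 genes was called. With the block 3 were higher and 3 lower (33.3%, against 17.6% of all genes). The added higher gene was Rfxap, a part of the complex at class I and class II promoters (0.20, blocked adjusted p = 0.00985), and the lower ones were the chaperones Calr (−0.21, blocked adjusted p = 0.0144) and Canx (−0.12, blocked adjusted p = 0.0325) and the tapasin-like gene Tapbpl (−0.22, blocked adjusted p = 0.0415).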

How the data were processed

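Total RNA of isolated islets was extracted with Trizol, labelled with a 3′ IVT Express kit and hybridised to Affymetrix Mouse430_2 arrays, per the labels' protocols. The deposited values are taken as log2 signals, 1 per probe set, since their highest value is 15.393; no source used here says how the authors corrected and normalised them. The precision is limited by the 8 arrays per group. Of 45101 probe sets, 34945 named 1 gene in the platform annotation, 932 several and 9160 none, and 64 control sets were left out. Symbols were updated by gene identifier to RefSeq (GRCm38.p6) for 34741.

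Groups were compared in limma 3.58.1 (R 4.3.3; lmFit, eBayes with a mean-variance trend), two-sided, with Benjamini-Hochberg adjustment over 18193 genes. The fit with genotype as the only term was tried on simulated arrays that were independent of each other. That simulation does not cover the block, the covariates or the correlation between same-numbered arrays. The labels do not say how the animals of a group relate, so p-values measure the spread between these preparations.

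Deviations from group means correlated between same-numbered arrays in all 8 pairs (0.237 to 0.735), so the numbers were taken to pair the arrays, although the labels do not name litters. Blocked values stand beside calls that they change.

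The genes and gene lists were chosen with earlier results of these data known. All 34 listed genes are named, and of the other lists the called genes. Alternatives were array weights, eBayes without the trend, quantile normalisation or centring on array medians, the replicate block, a filter on dim genes, probe sets averaged or tested singly, immune or acinar marker means as covariates with and without the block, leaving out each array or the arrays numbered 1 to 3, and an adjusted p under 0.1. A covariate for RNA quality, the mean 3′ minus 5′ difference of control sets for Gapdh and beta-actin, was added after seeing the data.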

Additional observations from a re-analysis of the deposited data

Results flagged for a closer look

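Of 64 groups of 8 arrays (32 genes in each genotype), 5 had 1 array farther from the others than Dixon's criterion allows, where chance flags about 1 in 20. All 5 were control groups. Ifit1 was lowest on control array 8, at 6.04 against 6.57 for the next. Ifit2 was highest on control array 3, at 6.56 against 6.08. The remaining 3 were highest on control array 1: Psmb9 at 8.62 against 8.19, B2m at 12.83 against 12.39, and Nlrc5 at 5.90 against 4.92. Control array 1 also had the highest lymphocyte marker mean of the controls, 7.39. The part of those cells' RNA in these signals was not tested.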

How the results depend on the processing

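Across 32 alternatives, no called gene of the list changed sign, and Oas1a was called in all. Against 1 higher and 4 lower genes, the count of higher genes was 3 with the replicate block, 2 with the block and the immune covariate, 3 with the acinar covariate, 2 at an adjusted p under 0.1, and 0 with the immune covariate. It was 0 without the arrays numbered 1 to 3, and 2 there with the block. Lower genes numbered 2 without dim genes, which leaves Oas2 and Oasl2 untested, 1 with the block and the acinar covariate, and 2 without the arrays numbered 1 to 3, with or without the block. All genes higher, 746, became 1133 over single probe sets, 1433 with the block, 424 with the block and the acinar covariate, and 380 without the arrays numbered 1 to 3. All genes lower, 848, became 1767 with the block, 1337 with the block and the immune covariate, 303 with the block and the acinar covariate, 511 with the 3′ minus 5′ covariate and 448 without the arrays numbered 1 to 3. Called genes of the signalling list, 2, became 5 with the block, 1 with the block and the acinar covariate, and 4 with the block without the arrays numbered 1 to 3. Those of the interferon-stimulated list, 3, became 8 with the block, 5 with the acinar covariate and 5 with the block without the arrays numbered 1 to 3. Those of the class I list, 2, became 6 with the block, 5 with the acinar covariate, 1 with the block and the acinar covariate, 1 with the 3′ minus 5′ covariate, and 0 without the arrays numbered 1 to 3, with or without the block. Leaving out 1 array at a time gave 0 to 1 higher and 3 to 4 lower genes of the list, with a median difference of −0.039 to −0.008. The higher count of 0 came from leaving out control array 8. The same gave 641 to 769 higher and 655 to 917 lower genes in all, and 1 to 3, 3 to 4 and 2 to 3 called genes on the signalling, interferon-stimulated and class I lists. The cause of these changes was not tested, beyond the fewer arrays or genes that some settings use. The 3′ minus 5′ difference of the Gapdh control sets was −0.19 in controls and −0.26 in mutants, lower in the mutant of 8 of 8 pairs. Oas2 and Oasl2 lie below the array medians, and no detection calls were used.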
